A study of Mus musculus with 9 samples.

Results

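The 10 genes described here belong to interleukin 6 (IL-6) and STAT3 signalling and were measured in mouse liver by RNA sequencing. They are Il6ra, Il6st, Jak1, Stat3, Socs3, Osmr, Lifr, Cebpb, Cebpd and Steap4. They were chosen by symbol, with earlier results of these data known. All 10 were found among the 31964 genes of the deposited table. The 9 libraries form 3 groups of 3, called C, A-C and M. Libraries are named here by group and replicate number, C2, C3 and C4, then A-C6, A-C9 and A-C12, then M24, M26 and M27, and values per library are given in that order. The complement gene C3 is named as a gene wherever it is meant. The stated design is the NIAAA model, in which mice take alcohol in a liquid diet, with or without the drug magnesium isoglycyrrhizinate (MgIG). The labels do not say which letters stand for which diet or treatment, nor do they give age, sex or batch. The strain is given as C57BL6J, and as C57BL7J for C4. The labels name no animals, so p-values here speak of the spread among these samples alone, which may be technical. The material is labelled both liver and hepatocyte.

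IL-6 binds a receptor, encoded by Il6ra, that has no signalling part of its own and works through a shared partner, gp130, encoded by Il6st. gp130 activates Janus kinases such as JAK1, which phosphorylate the transcription factor STAT3. In hepatocytes STAT3 switches on the acute phase plasma proteins and Socs3, whose product blocks gp130 and JAK and so closes the loop. Oncostatin M and leukaemia inhibitory factor use the same gp130 with the partners OSMR and LIFR. The factors C/EBP beta and C/EBP delta act beside STAT3 on acute phase genes, and Steap4 encodes a membrane metalloreductase known in mouse tissue as a target of inflammatory cytokines.

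Levels are TPM, a share of transcripts corrected for gene length, after TMM scaling between libraries, so they are per length. Different genes can be set side by side only as far as the annotated exon lengths hold. The reads recovered from the TPM ran from 45597163 to 65165613 per library. Differences are log2 changes of (scaled TPM + 1), which understates the change of low genes. They were tested with limma over 11086 genes, with adjusted p under 0.05 as the threshold. The deposited TPM of Osmr reached 1 in 4 libraries, A-C9 and A-C12 and M26 and M27, so it passed the filter on low values only through those libraries. The other 9 members reached it in all 9 libraries. In bulk liver, fewer cells of a type and less RNA per cell cannot be told apart.

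Libraries within A-C and within M were unlike each other. The 29 acute phase plasma protein genes together took 2.20% to 2.33% of the TPM in C. They took 2.88%, 8.66% and 22.3% in A-C6, A-C9 and A-C12, and 3.65%, 16.2% and 12.2% in M24, M26 and M27. The list also holds Hamp, the hepcidin gene, which was called lower in M, and the metallothionein genes Mt1 and Mt2, called higher there. All listed genes of the mitochondrial chromosome together took 27.6% in C2 and between 11.98% and 15.4% elsewhere. Summed hepatocyte markers were far above those of any other cell type in each library. They lay between 147135 and 156861 scaled TPM for C, between 85318 and 142610 for A-C and between 85288 and 101382 for M. Each A-C and M library was below all of C, and the part of this in the members' values was not tested. The sum is weighted to its most abundant genes. The median log2 change of the 8 markers was -0.09 in A-C and -0.15 in M. Apoa1 was called lower in both, and Hnf4a and Apob were called higher in M. Markers of endothelial, Kupffer and stellate cells were also present, with the 31 tested genes of those lists detected, so RNA of other liver cells was present.

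Il6st, Stat3 and Steap4 were higher in A-C than in C and higher in M than in C, and no member passed the test between M and A-C. Thus 3 of the 10 members were called higher and 0 lower in A-C against C, where 9.65% of all tested genes were called higher and 7.17% lower. In M against C 3 were called higher and 0 lower, where the shares of all genes were 9.29% and 6.77%. The median log2 change of the 10 members was 0.63 in A-C and 0.52 in M, against 0.03 and 0.05 over all tested genes. Since the members were chosen with earlier results of these data known, setting them beside all genes is a description and not a test. Both comparisons share the C libraries. The count in A-C was 1 without C2, C3 or C4 or A-C9 or A-C12. It was 5 without M24, of which 4 were higher and 1, Lifr, lower. The count in M was 1 without C2, C3 or C4 or M26 or M27. It was 6 without M24, of which 5 were higher and 1, Cebpb, lower. In the TPM as deposited the median over all genes shifted to 0.22 and 0.27, with 2385 called higher and 404 lower for A-C and 2931 and 351 for M. Scaled, 1070 were higher and 795 lower for A-C, against 1030 higher and 751 lower for M, and Jak1 was the member called in addition without scaling.

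**Figure D1:**
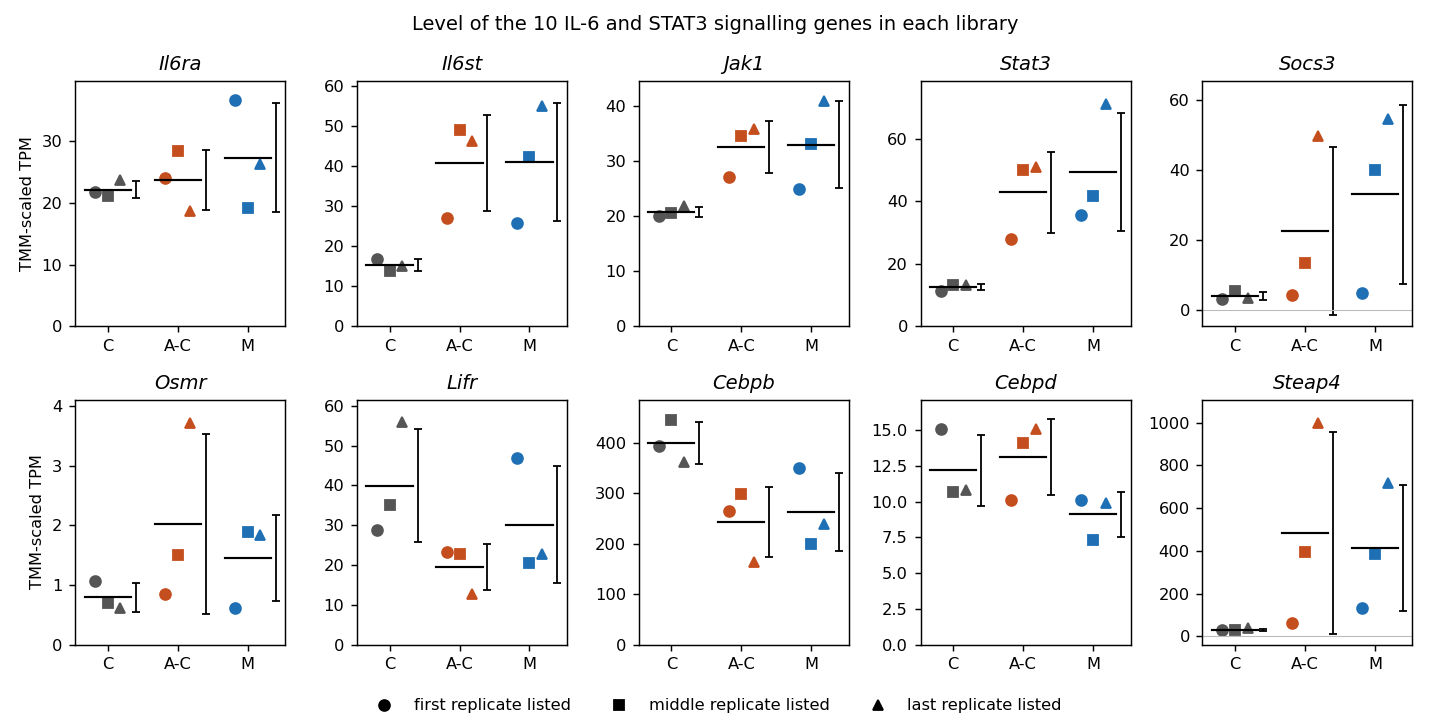
TMM-scaled TPM of the 10 members (vertical axes, from 0, a different range for each gene) in the 3 libraries of each group (horizontal axis). Points are libraries in the order of their replicate numbers, horizontal lines are group means and the bars beside them are ± SD (n = 3). Stat3, Il6st, Jak1 and Steap4 lie above the C range in all 6 libraries of A-C and M, while Socs3 lies within it in A-C6 and M24.

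Among the cytokines that start the pathway, Il6, Osm, Lif and Il11 were at the limit of detection. Il6 had 6 reads in A-C6, a further 2 reads in A-C9 and 0 reads in the other 7 libraries, where 0 reads allow up to 3, or at most 0.0620 scaled TPM. Osm, which encodes oncostatin M, had 20 reads in all, of which 11 were in A-C9. Lif and Il11, which encode leukaemia inhibitory factor and interleukin 11, had 20 and 23 reads in all. Such intervals cover counting error only. Of the 10 cytokine genes of the family only Ctf1, the cardiotrophin gene, passed the filter on low values. Cntf and Ebi3, under the filter, had 112 and 92 reads in all, with some in each of the 9 libraries. Ctf1 stood at 4.12 ± 0.610 (SD, n = 3) in C, 3.13 ± 1.53 in A-C, then 2.83 ± 0.675 in M and did not pass in any comparison.

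Il6st (gp130, chromosome 13, 112464070 to 112510086, mm10) stood at 16.8, 13.8 and 15.1 in C2, C3 and C4. It stood at 27.001, 48.9 and 46.2 in A-C6, A-C9 and A-C12, and at 25.7, 42.3 and 54.9 in M24, M26 and M27. All 6 libraries of A-C and M lay above C, and A-C and M covered much the same range. Il6st rose by 1.32 log2 in A-C (SE 0.30, limma adjusted p = 0.0209) and by 1.31 in M (SE 0.30, adjusted p = 0.0238). The call in A-C was lost without C2, C3 or C4 or A-C9 or A-C12, with adjusted p of 0.0515 to 0.0805. That in M was lost without C2, C3 or C4 or M26 or M27, with 0.0588 to 0.0933.

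Il6ra, the receptor that binds IL-6 itself (chromosome 3, 89864059 to 89913196), stood at 21.8, 21.1 and 23.7 in C. It stood at 24.04, 28.4 and 18.7 in A-C and at 36.7, 19.1 and 26.4 in M. The groups overlapped, and A-C12 and M26, where acute phase genes took the largest shares, had the lowest levels. Its log2 change was 0.07 in A-C (95% interval -0.45 to 0.59) and 0.25 in M (-0.27 to 0.77), and neither passed (adjusted p = 0.841 and 0.470).

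The balance between both subunits differed between libraries. Il6st over Il6ra, a ratio of levels per length, was 0.637 to 0.772 in C. It was 1.12, 1.72 and 2.47 in A-C6, A-C9 and A-C12, and 0.701, 2.21 and 2.08 in M24, M26 and M27. In C the level of Il6ra per length was the higher, and in A-C and in M26 and M27 that of Il6st was. These levels rest on annotated exon lengths, so which transcript was the more abundant is not settled. M24 lay within the C range.

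Lifr, the receptor subunit for leukaemia inhibitory factor (chromosome 15, 7090614 to 7197489), was the more abundant of the other gp130 partners. It stood at 28.9, 34.97 and 55.9 in C, at 23.2, 22.6 and 12.7 in A-C, and at 47.0, 20.4 and 22.8 in M. The A-C libraries lay below all of C, while M24 lay within C and the other M libraries below it. Its log2 change was -0.99 in A-C (SE 0.37, adjusted p = 0.0934, and 0.0448 without M24) and -0.44 in M (SE 0.37, adjusted p = 0.415). Without each other library in turn, that in A-C did not pass, with limma adjusted p of up to 0.239. The ratio of Il6st over Lifr was 0.270 to 0.584 in C, with 1.17 to 3.63 for A-C and 0.547 to 2.41 for M.

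Osmr, the oncostatin M receptor subunit (chromosome 15, 6813577 to 6874969), had the lowest level of the 10 members. It stood at 1.07, 0.697 and 0.612 in C, at 0.847, 1.51 and 3.72 in A-C, and at 0.620, 1.89 and 1.85 in M, from 148 to 1044 reads. A-C6 and M24 lay within the C range and the other 4 libraries above it. The log2 changes were 0.65 in A-C (SE 0.34, adjusted p = 0.212) and 0.41 in M (SE 0.34, adjusted p = 0.418). Lifr over Osmr, as a ratio of levels per length, was 26.99 to 91.4 in C. It was 27.3, 15.04 and 3.43 in A-C, then 75.7, 10.8 and 12.3 in M, so A-C6 and M24 lay within the C range and the other 4 below it.

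Jak1, the kinase bound to gp130 (chromosome 4, 101152367 to 101265282), stood at 19.96, 20.5 and 21.8 in C. It stood at 27.1, 34.6 and 36.0 in A-C and at 25.0, 33.2 and 41.0 in M. All 6 libraries of A-C and M lay above C. The log2 change was 0.62 in both A-C and M (SE 0.19), just short of the threshold (adjusted p = 0.0524 and 0.0526). The values passed in the TPM as deposited (0.0163 and 0.0118) and with precision weights on the recovered reads (0.0470 and 0.0487), the latter chosen after seeing the data. For A-C they passed with only the 6 libraries compared (0.0395). In A-C against C, Jak1 passed also without A-C6, M24 or M27 (0.0272 to 0.0412), and in M against C without A-C6, A-C12 or M24 (0.0168 to 0.0468). Without each other library in turn it did not pass, with limma adjusted p of up to 0.153 in A-C and 0.182 in M.

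Stat3, the transcription factor of the pathway (chromosome 11, 100885098 to 100939540), stood at 11.2, 13.1 and 13.1 in C. It stood at 28.0, 49.9 and 50.9 in A-C and at 35.5, 41.6 and 71.1 in M. The highest C library and the lowest library of the other groups, A-C6, were well apart. The mean was 3.44 times that of C in A-C and 3.96 times in M. Stat3 rose by 1.66 log2 in A-C (SE 0.29, limma adjusted p = 0.0106) and by 1.84 in M (SE 0.29, adjusted p = 0.00932). No fit without a single library, of 9, lost either call, with adjusted p of up to 0.0473 in A-C and 0.0431 in M. Stat5a overlaps Stat3 on the other strand (GENCODE M21), and it stood between 2.10 and 4.47 in the 9 libraries. Whether counting used strand is not given, so reads of the shared stretch cannot be told apart. The same holds for Il6ra with Gm42809, Jak1 with Raver2 and Gm24468, Cebpb with Tmem189 and Cebpd with Spidr, each on the opposite strand. Jak1 also overlaps a pseudogene on its own strand, Gm12785. Of these, Raver2 reached at most 0.142 and Spidr 1.41.

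Socs3, the feedback inhibitor (chromosome 11, 117966079 to 117970047), did not follow Stat3 in all libraries. It stood at 3.32, 5.44 and 3.60 in C, at 4.39, 13.4 and 49.8 in A-C, and at 4.81, 40.0 and 54.7 in M. A-C6 and M24 lay within the C range although Stat3 was above it in both. The other 4 libraries were above C, by a log2 difference from the C mean of 1.51 in A-C9 and of 3.02 to 3.47 in A-C12, M26 and M27. The log2 change of the groups was 1.65 in A-C (SE 0.94, adjusted p = 0.242) and 2.23 in M (SE 0.94, adjusted p = 0.127, and 0.0224 without M24). Without each other library in turn, that in M did not pass, with limma adjusted p of up to 0.365. Socs3 over Stat3, as a ratio of levels per length, was 0.276 to 0.414 in C. It fell outside that range on both sides in the other groups, at 0.157, 0.268 and 0.978 in A-C and at 0.136, 0.960 and 0.769 in M.

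Steap4, the metalloreductase gene (chromosome 5, 7960457 to 7982213), varied most of the 10 members, 34.6-fold between the lowest and the highest library. It stood at 28.8, 30.3 and 38.0 in C, at 62.1, 397 and 996 in A-C, and at 132, 388 and 718 in M. All 6 libraries of A-C and M lay above C, and A-C6 and M24 were the lowest of their groups. Steap4 rose by 3.14 log2 in A-C (SE 0.93, limma adjusted p = 0.0485) and by 3.33 in M (SE 0.93, adjusted p = 0.0429). These calls were close to the threshold. That in A-C was lost without C2, C3 or C4, A-C9 or A-C12, or M26 or M27 (0.0536 to 0.137), without a filter on low values (0.0908) and with only the 6 libraries compared (0.0565). That in M was lost without C2, C3 or C4, A-C9, or M26 or M27 (0.0670 to 0.156), and without the filter (0.0833).

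**Figure D2:**
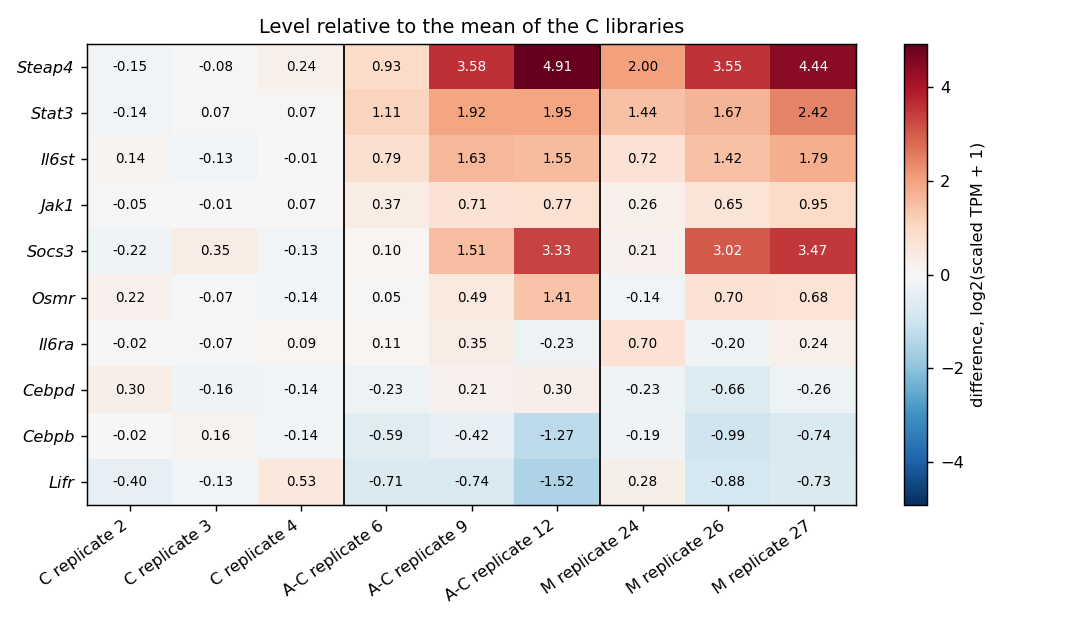
Difference of each library from the mean of the 3 C libraries in log2(scaled TPM + 1), by member (rows) and library (columns, the groups divided by lines). Steap4, Stat3, Il6st and Jak1 are positive in all 6 libraries of A-C and M. Socs3 is at 0.10 in A-C6 and 0.21 in M24, against 1.51 to 3.47 in the other 4.

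Sequence before the RefSeq starts of Steap4 and Socs3, the members with the widest ranges, is shown with that of Stat3. Windows of 250 bases before the start of each gene were taken from RefSeq (GRCm38.p6, the sequence of mm10) for the 9 members found there. They were searched for TTCNNNGAA, the core of a STAT site, which reads the same on both strands. Steap4 and Socs3 each held a single match, 2 of the 9 members, and 7.02% of all 32851 windows held at least 1. A match is a description of the letters and not a site of binding. The stretches run 5′ to 3′ on the strand of the gene, stop short of the next base that the deposited table counts as exon, and carry the match in capitals. That of Socs3 is chr11:117969452-117969616 on the minus strand, that of Steap4 chr5:7960222-7960456 on the plus strand and that of Stat3, without a match, chr11:100939541-100939790 on the minus strand. The RefSeq start of Socs3 lies inside the gene as the deposited table lists it, so the Socs3 stretch lies within that gene span, between its most upstream exon and the next.
Socs3: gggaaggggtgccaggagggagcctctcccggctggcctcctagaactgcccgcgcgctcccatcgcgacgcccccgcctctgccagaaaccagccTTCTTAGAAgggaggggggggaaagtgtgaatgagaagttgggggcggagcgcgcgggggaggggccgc
Steap4: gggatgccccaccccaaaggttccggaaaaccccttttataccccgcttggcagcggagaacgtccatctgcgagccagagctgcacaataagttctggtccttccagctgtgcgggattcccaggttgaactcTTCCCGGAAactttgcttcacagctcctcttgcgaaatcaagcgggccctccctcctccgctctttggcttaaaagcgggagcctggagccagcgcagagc
Stat3: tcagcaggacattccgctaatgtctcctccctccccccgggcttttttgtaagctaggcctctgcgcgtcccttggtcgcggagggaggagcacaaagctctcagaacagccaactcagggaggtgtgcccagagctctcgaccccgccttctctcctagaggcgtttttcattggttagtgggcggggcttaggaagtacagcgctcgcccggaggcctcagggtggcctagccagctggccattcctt
The match TTCTTAGAA of Socs3 begins 154 bases before the RefSeq start, and the match TTCCCGGAA of Steap4 begins 116 bases before it.

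Cebpb (C/EBP beta, chromosome 2, 167688915 to 167690418) had the highest level of the 10 members in C, at 394, 445 and 363. It stood at 265, 299 and 164 in A-C and at 350, 200.35 and 239 in M, so the A-C and M libraries lay below all of C. The log2 change was -0.76 in A-C (SE 0.27, adjusted p = 0.0788) and -0.64 in M (SE 0.27, adjusted p = 0.125, and 0.0464 without M24), and neither passed. Without each other library in turn, that in M did not pass, with limma adjusted p of up to 0.323. Cebpd (C/EBP delta, chromosome 16, 15887286 to 15891031) stood at 15.0, 10.7 and 10.8 in C, at 10.1, 14.1 and 15.1 in A-C, and at 10.1, 7.28 and 9.87 in M. The log2 change was 0.09 in A-C (95% interval -0.35 to 0.54) and -0.38 in M (-0.83 to 0.07). Its A-C libraries overlapped C while all of M lay below C. The order of the levels also changed, since Steap4 was above Cebpb in A-C9 and A-C12 and M26 and M27 and below it in the other 5 libraries.

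Between M and A-C 0 of the 10 members passed with limma, where 0.0361% of all genes were called higher, 0.135% lower and 0.171% in either direction. At an unadjusted p under 0.05 there was 1 member, Cebpd, and 1277 of the 11086 genes. With precision weights, as with each other alternative, 0 members passed. The interval of the difference was narrowest for Jak1, at -0.42 to 0.43 log2, and reached from -0.68 to 0.66 for Il6st and from -0.47 to 0.84 for Stat3. It was wide for Socs3 (-1.54 to 2.71) and Steap4 (-1.91 to 2.29), so that a difference of over 2 log2 upward could have been missed for both. Cebpd had a log2 difference of -0.48 (SE 0.20, adjusted p = 0.406). The M and A-C libraries of every member overlapped, where 7.7% of all genes lay wholly higher in M, 8.49% wholly lower and 16.2% either.

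Against C, 6 members had groups that did not overlap in A-C, 4 above and 2 below, and 6 in M, again 4 above and 2 below. Of all tested genes 22.7% lay wholly above C and 18.4% wholly below it for A-C, 41.2% together. For M these were 23.7% and 17.9%, 41.6% together. The members above C were Il6st, Jak1, Stat3 and Steap4 in both groups. Those below were Lifr and Cebpb in A-C and Cebpb and Cebpd in M. The test of any difference among the 3 groups passed for Stat3 (limma F, adjusted p = 0.0110) and Il6st (0.0263), and not for Steap4 (0.0547) or Jak1 (0.0632), where 15.9% of all genes passed. Without library C3, 0 of the 10 passed it, and 5 members did without M24.

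**Figure D3:**
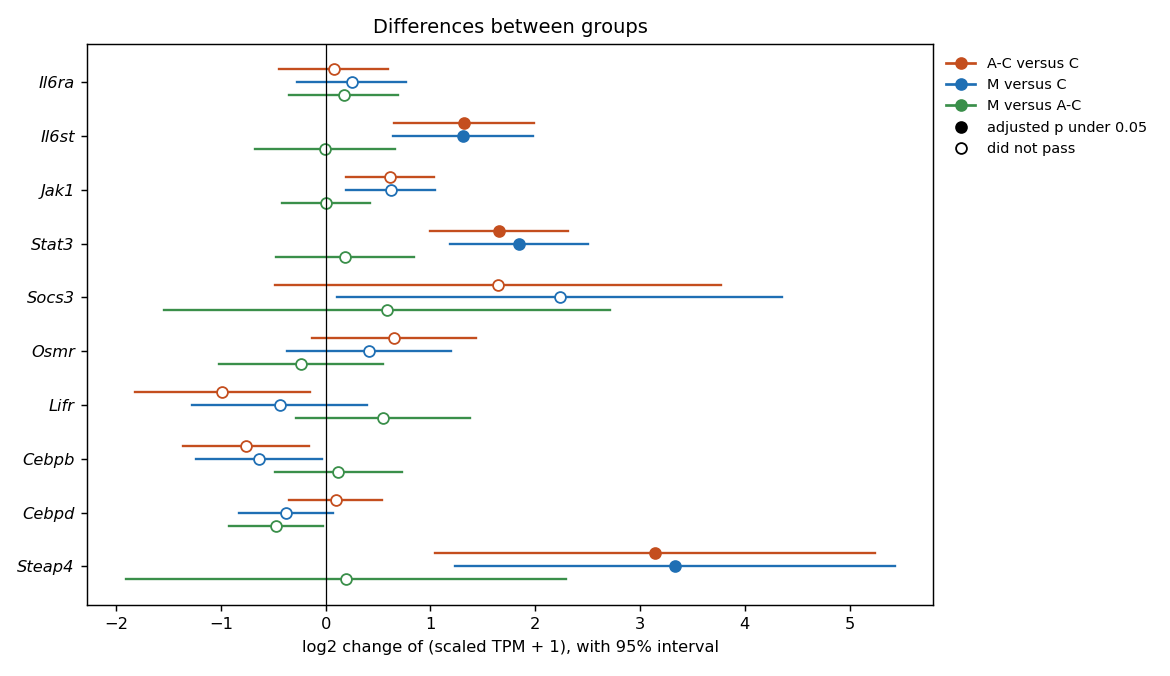
Log2 change of (scaled TPM + 1) for each member in the 3 comparisons, with its 95% interval from limma. Filled points have an adjusted p under 0.05. Il6st, Stat3 and Steap4 are filled in both comparisons with C, and none is in M versus A-C.

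The pattern of Stat3 over the 9 libraries was most like that of Il6st, Jak1 and Steap4 among the members, with Pearson r of 0.967, 0.962 and 0.944 on the log2 scale. That of Socs3 was closest to Steap4 (r = 0.921) and Jak1 (0.897), and that of Osmr to Socs3 (0.877). Osmr and Lifr ran opposite (-0.894), as did Osmr and Cebpb (-0.870). These values describe 9 libraries that share their groups and their scaling. Taken as deviations from the group means, they were 0.875, 0.929 and 0.889 for Stat3 with Il6st, Jak1 and Steap4, 0.916 for Socs3 with Steap4 and -0.863 for Osmr with Lifr. Il6ra and Stat3 had an r of 0.210, and -0.184 as deviations. Il6ra was closer to Cebpb and Lifr as deviations (0.874 and 0.838) than over the libraries as they stand (0.365 and 0.508). The r of Cebpd with the other members was at most 0.244, and at most 0.438 as deviations.

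Among the non-members with a mean level of at least 5, the 5 most like Stat3 were Fam168b, Smc1a, the complement gene C3, Gabpa and Gtf3c1, with r from 0.983 to 0.994. The complement gene C3 stood at 1036 ± 140 in C, 4054 ± 1219 in A-C, then 4361 ± 1467 in M. The 5 most like Socs3 were Icam1, Nudt4, Rce1, Tifa and Il17ra, with r from 0.981 to 0.992. Tifa, which encodes an adaptor protein of NF-kB signalling, stood between 3.07 and 3.80 for C, between 4.26 and 67.4 for A-C and between 6.56 and 81.6 for M. Icam1, an adhesion molecule gene, stood between 1.57 and 1.82 for C, between 2.31 and 11.995 for A-C and between 2.27 and 13.1 for M.

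Of 4 sheddase genes, whose enzymes and partners cut receptors from the cell surface, 0 passed in A-C or M, and Adam17, the main one for the IL-6 receptor, stood at 4.36 ± 0.483 in C, 5.25 ± 0.842 in A-C, then 6.05 ± 1.35 in M. Il11ra1, the interleukin 11 receptor, stood at 11.02 ± 0.646, 12.2 ± 3.25 and 9.46 ± 1.83. Il11ra1 and Cntfr were the 2 tested genes among the other receptors of the family, and 0 of these passed. Of 8 other Janus kinases and STATs only Jak3 passed, from a C mean of 2.81 ± 0.296 to means of 7.49 ± 3.22 for A-C and 6.90 ± 1.998 for M (adjusted p = 0.0410 and 0.0495). Of all tested genes 16.8% passed in A-C and 16.1% in M, in either direction. Jak2 stood at 4.88 ± 0.369, 4.66 ± 1.08 and 7.02 ± 0.895 in C, A-C and M, and Tyk2 at 5.49 ± 0.492, 4.49 ± 0.670 and 5.88 ± 0.809. Stat5b, the family member of growth hormone signalling, stood at 14.3 ± 1.31, 14.9 ± 5.77 and 17.6 ± 4.70.

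Among 14 tested inhibitors of cytokine signalling other than Socs3, 1 was higher in A-C and the same gene in M, with 0 lower. Of all tested genes 9.65% were called higher in A-C and 9.29% in M. The inhibitor gene called was Ptpn11, which encodes the phosphatase SHP2 that docks on gp130 at the same place as SOCS3. Ptpn11 rose from a C mean of 9.40 ± 1.15 to means of 16.2 ± 1.66 for A-C and 18.6 ± 3.32 for M (adjusted p = 0.0186 and 0.0117). Socs1 stayed under the filter at no more than 0.775 in any library. Socs2, known as a STAT5 target, stood at 1.65 ± 0.250 in C, 1.04 ± 0.289 in A-C, then 4.02 ± 3.05 in M. Cish, another STAT5 target, stood at 1.66 ± 1.12, 0.804 ± 0.388 and 1.90 ± 1.46, and neither passed. None of the 4 other C/EBP family genes passed, and Cebpa, which encodes C/EBP alpha, stood at 320 ± 40.0, 220 ± 86.1 and 254 ± 42.3.

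Of 20 early genes downstream of IL-6 or STAT3, 2 were called higher and 1 lower for A-C, then 3 higher and 2 lower for M, shares close to those of all genes. Their median log2 change was 0.25 in A-C and 0.22 in M. Fgl1, a liver-secreted protein gene induced by IL-6, rose from a C mean of 103 ± 15.9 to means of 603 ± 372 for A-C and 645 ± 365 for M (adjusted p = 0.0366 and 0.0330). Il4ra, the interleukin 4 receptor gene, was higher in A-C (log2 change 0.56, adjusted p = 0.0263). Mcl1, a cell survival gene, was higher in M (0.75, adjusted p = 0.00959), as was Irf1 (0.72, adjusted p = 0.0496), named after its values were seen, while Myc was lower (-0.85, adjusted p = 0.0496). Vegfa, the endothelial growth factor gene, was lower in both, at 86.9 ± 14.0 in C, 46.3 ± 14.1 in A-C, then 44.1 ± 7.38 in M.

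Acute phase plasma proteins had 28 tested genes, with 8 called higher and 0 lower for A-C, then 10 higher and 1 lower for M. Of all tested genes 9.65% were called higher and 7.17% lower for A-C, then 9.29% and 6.77% for M. The median log2 change was 2.05 in A-C and 2.23 in M. Serpina3m, a protease inhibitor gene, was higher in A-C by 2.87 log2 (adjusted p = 0.00645), and Lbp, which encodes the lipopolysaccharide-binding protein, by 2.08 (adjusted p = 0.0133). Mt2, a metallothionein gene, was higher in A-C by 2.89 (adjusted p = 0.0442) and Orm3 by 2.71 (adjusted p = 0.0413). In M, Orm2 was higher by 4.88 (adjusted p = 0.0496), Orm3 by 4.20 (adjusted p = 0.0138) and Mt1 by 3.48 (adjusted p = 0.0481). The Orm genes, which encode orosomucoids, are close copies, so the split of reads between them is uncertain. The gene that was lower in M was Hamp, the hepcidin gene, known as an IL-6 and STAT3 target. It stood at 6558, 5522 and 3965 in C, at 921, 1861 and 4612 in A-C, and at 67.7, 905 and 1211 in M, a log2 change of -3.63 in M (SE 1.01, adjusted p = 0.0428). Among 9 plasma protein genes known to fall in the acute phase 1 was called lower in A-C and in M, Apoa1, the main HDL protein gene (log2 change -0.95 and -1.80, adjusted p = 0.0212 and 0.00290). The median log2 change of the 9 was -0.10 in A-C and -0.56 in M. For M 6 of them lay wholly below C and 0 above, where 17.9% and 23.7% of all tested genes did. For A-C 2 lay wholly below and 1 above, where 18.4% and 22.7% did.

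**Figure D4:**
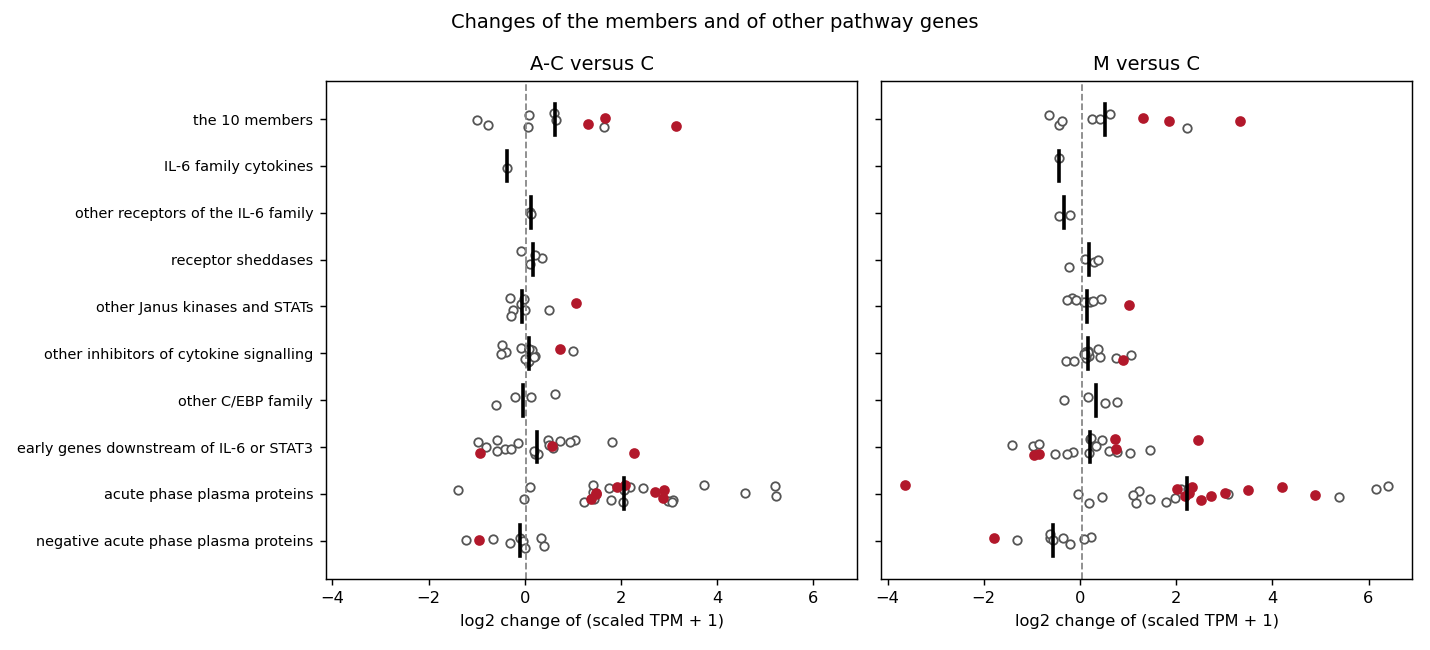
Log2 change of (scaled TPM + 1) of each tested gene, for the members and 9 further lists of the pathway, in A-C versus C and M versus C. Red points have an adjusted p under 0.05, black bars are list medians and the dashed line is the median of all tested genes. The acute phase list has medians of 2.05 and 2.23, while the medians of the other 8 lists lie between -0.56 and 0.34.

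Sums of cell type markers also differed between libraries. Neutrophil markers summed to 1.44 to 7.63 in C, to 4.31, 45.2 and 58.4 in A-C6, A-C9 and A-C12, and to 5.21, 63.1 and 53.1 in M24, M26 and M27. A-C6 and M24 lay within C, as they did for Socs3 and Osmr. Of the 10 neutrophil markers 4 were tested and 0 passed in A-C or M, 5 (Ly6g, Mpo, Cxcr2, Ngp and Camp) stayed under 1 in all libraries, and their part in the members' values was not tested. Endothelial markers summed to 76.0 to 125 in C, with 178 to 187 for A-C and 96.2 to 133 for M, with 7 of 10 called higher in A-C and 2 in M. These sums were lower in each M library than in each A-C library, and their part in the members' values was not tested. Kupffer cell markers summed to 169 to 254 in C, with 283 to 387 for A-C and 236 to 264 for M, with 4 of 11 called higher in A-C and 1 in M, and their part was not tested. Stellate cell markers summed to 175 to 301 in C, with 233 to 301 for A-C and 194 to 205 for M, with 2 of 10 called higher in both and 1 lower in A-C and 2 in M. B cell markers fell in 3 of 3 tested cases in A-C and in M, from 34.3 to 47.0 in C to 10.1 or less. Of 1 tested T and NK cell marker, 4 cholangiocyte markers and 5 erythroid markers, 0 were called higher in A-C or M. Of the erythroid genes 2 were lower in A-C. The T and NK cell count rests on 1 gene of 7, and 4 of that list (Cd3e, Cd3d, Cd8a and Klrb1c) stayed under 1 in all libraries. Of 8 hepatocyte markers 1 was lower in A-C and in M and 2 were higher in M. Beside these counts, 9.65% of all tested genes were called higher and 7.17% lower in A-C, then 9.29% and 6.77% in M.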

How the data were processed

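Total RNA was extracted with Trizol and sequenced, per the labels. The authors deposited 1 table of TPM. Its build, per the submitters' processing notes, is mm10. Aligner, counter, annotation release and whether strand was used: not given in the sources used here. Of 32248 lines, 452 repeat 168 gene IDs under several symbols, and 1 line per ID was kept (31964 genes). TPM times exon length gave whole reads, within 0.1, for at least 99.965% of values above 0. From these reads TMM factors were computed (trim of 30% and 5%) and applied to the TPM. Genes with a deposited TPM of at least 1 in at least 3 libraries were tested with limma 3.58.1 (R 4.3.3) on log2(scaled TPM + 1), a mean per group, all 9 libraries in 1 fit with 6 residual degrees of freedom, trend and robust settings, and Benjamini-Hochberg adjustment per comparison. The fit was also run on simulated data, with independent noise and the same spread of a gene in all groups. These libraries differ from that setting, with a wider spread of Socs3 in A-C and M than in C. The simulation therefore does not vouch for the calls.

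The members and gene lists were chosen with earlier results of these data known. Of 182 list entries 181 were found, with Tf matched as Trf. Named beside the members were 15 fixed pathway genes, of which 1 is not reported here, up to 4 called genes per list with the largest change in each comparison with C, and the 5 genes most like Stat3 and Socs3. Ctf1, Cntf, Ebi3, Irf1, Stat5a and the cell type markers fall outside this rule and were named after their values were seen. Alternatives were the scaling, the pseudocount (0.1), the filter, the limma settings, the libraries in the fit and leaving out each library. Voom on the recovered reads was added after seeing the data. Promoter sequences are from RefSeq.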

Additional observations from a re-analysis of the deposited data

How the results depend on the processing

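No paired analysis was possible because the groups share no replicate numbers. Members called ranged, over the 9 fits that left out a library, from 1 to 5 in A-C versus C, from 1 to 6 in M versus C, from 0 to 0 in M versus A-C and from 0 to 5 in the test among the 3 groups. All genes called ranged from 328 to 2190, 194 to 2512, 3 to 30 and 148 to 2493. The test among the 3 groups called 4 members and 3113 genes in the TPM as deposited, and 1 and 969 without a filter, against 2 and 1760. In M versus C 3282 genes were called in the TPM as deposited and 1086 without a filter, against 1781. In M versus A-C 6 were called without a filter and 2 with only the 6 libraries compared, against 19. Of 210 member values under the other alternatives, 1 changed sign, Il6st in M versus A-C at 0.037 in the TPM as deposited. Of 270 values without a library, 19 changed sign, none of them a called value. In A-C versus C these gave ranges of -0.060 to 0.23 for Il6ra and -0.0091 to 0.26 for Cebpd. In M versus A-C they were -0.056 to 0.40 for Il6ra, -0.28 to 0.28 for Il6st, -0.16 to 0.18 for Jak1, -0.11 to 0.39 for Stat3, -0.19 to 1.60 for Socs3, -0.54 to 0.14 for Osmr, -0.14 to 0.30 for Cebpb and -0.92 to 1.08 for Steap4. The cause was not tested, other than the fewer libraries. Voom on the recovered reads, chosen after seeing the data, called 1881, 1796 and 15 genes in the 3 comparisons. The fewest reads of a member in a library were 148 for Osmr and 191 for Socs3.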
